A study of Homo sapiens with 10 samples.

Results

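The 10 genes described here encode glycoproteins of the extracellular matrix, and they were taken by symbol from tables of 58302 genes in 10 RNA-Seq libraries of human liver cancer cell lines. They are FN1, FBN1, FBLN1, EFEMP1, SPARC, TNC, THBS1, THBS2, POSTN and VCAN, and each symbol matched 1 Ensembl identifier. SK-hep1 cells had been transfected with a mock control, with PSPC1, with PSPC1 and PTK6, with PSPC1 carrying the YF mutation, named Y523F in the study's methods, or with that mutant and PTK6. Mahlavu cells carried a mock control, the C-terminal piece of PSPC1 called CT131, or a form with a mutated nuclear localization sequence (Mut-NLS-CT131). Huh-7 cells were left untreated or were given hepatocyte growth factor (HGF) at 10 ng/ml for 48 h. The labels carry the HGF treatment text on both Huh-7 samples, and the untreated one was told from the other by its title and source name, on which every HGF value rests. PSPC1 is an RNA-binding protein of nuclear paraspeckles, PTK6 is a non-receptor tyrosine kinase, and the study asked how the binding of one by the other alters tumor progression. All lines were grown in medium with fetal bovine serum, and in the study's description SK-hep1 is a line deficient in PSPC1. Stable clones were derived for its animal experiments, and whether the sequenced transfectants were clones or pools is not given in the sources used here.

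With 1 library per condition, no difference between conditions has a replicate check, no p-value is given, and libraries of one line are not replicates of each other. Levels are FPKM as deposited, in which the fragments of a gene are divided by gene length and library depth. Differences are log2 ratios of quantile-normalized FPKM + 1. A gene was counted as changed when it differed by at least 2-fold, among genes whose quantile-normalized FPKM averaged 1 or more over both libraries. Ratios of the gene's share of reads are also given with exact 95% intervals, which cover counting error only. A fold change on the log2(FPKM + 1) scale understates the change of a gene with a low level.

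The libraries held 15245935 to 24278662 reads on genes. PSPC1 had 0 reads in SK-hep1 mock, a limit of 0.0938 FPKM at 3 reads, and 71 to 2539 reads in the 4 SK-hep1 transfectants. PTK6 had 1060 and 679 reads in the SK-hep1 libraries given PTK6 and 230 to 307 in the others. In Mahlavu, PSPC1 had 1582 reads in mock, 899 in the library labelled PSPC1-CT131 and 632 in that labelled Mut-NLS-CT131. Reads summed over the gene thus do not show these constructs, and every direction drawn from these 2 libraries rests on their labels. Of 8 hepatocyte markers, 8 reached 1 FPKM in both Huh-7 libraries, and 1, SERPINA1, did in each SK-hep1 and Mahlavu library. ALB, TTR and TF, which encode albumin, transthyretin and transferrin, had no read in those 8 libraries. The epithelial markers CDH1 and EPCAM stayed under 0.5 FPKM in SK-hep1 and Mahlavu, while KRT8 and KRT18 were above 100 FPKM there. KRT19 parted these 2 lines, at 305 to 1210 FPKM in SK-hep1 and 0.141 to 1.22 in Mahlavu. All 5 reached 1 FPKM in Huh-7. Of 7 fibroblast and stellate markers, 3 to 5 reached 1 FPKM in each of the 10 libraries. DCN did not pass 0.0405 FPKM in any library. COL1A2 was at 26.7 to 44.5 FPKM in Mahlavu and 140.7 to 150.3 in Huh-7, and PDGFRB at 17.5 to 43.0 in SK-hep1. Of 5 endothelial markers, 0 reached 1 FPKM in the SK-hep1 and Mahlavu libraries, and 1 and 2 in untreated and HGF-treated Huh-7. Of 4 leukocyte markers, 1, CD14, did in each library.

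The extracellular matrix is a network of secreted proteins that holds cells in place and carries signals to them through integrins and other receptors. Fibronectin and fibrillin build its fibrils, the fibulins bridge fibrils and elastic fibers, and versican is a large chondroitin sulfate proteoglycan that binds hyaluronan. SPARC, tenascin-C, the thrombospondins and periostin are matricellular proteins, which add little to the structure and change how cells attach, spread and migrate. In the liver, hepatocytes secrete plasma fibronectin, while stellate cells and fibroblasts make much of the matrix of a scar or a tumor stroma, and several of the genes are widely used as markers of epithelial-mesenchymal transition (EMT).

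The DNA before an annotated RefSeq start of transcription is printed for the 6 members that carried the differences described next or were the most abundant. Each line gives 250 bases before the annotated start, from 5′ to 3′ on the gene's strand, from RefSeq on GRCh38.p14, and 9 of the 10 members had such an entry. Capitals mark the TATA element TATAA, the box bound by NF-Y, which reads CCAAT, the cyclic AMP response element TGACGTCA, the motif of AP-1 factors, TGANTCA, and the element of TEAD factors, GGAATG, all searched on both strands, so that a match on the other strand appears as the reverse complement.
FN1: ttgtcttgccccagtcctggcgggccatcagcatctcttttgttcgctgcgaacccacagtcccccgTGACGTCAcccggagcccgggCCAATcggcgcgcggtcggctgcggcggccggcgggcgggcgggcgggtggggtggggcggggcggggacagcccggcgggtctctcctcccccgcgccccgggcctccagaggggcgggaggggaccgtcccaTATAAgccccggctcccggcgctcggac
SPARC: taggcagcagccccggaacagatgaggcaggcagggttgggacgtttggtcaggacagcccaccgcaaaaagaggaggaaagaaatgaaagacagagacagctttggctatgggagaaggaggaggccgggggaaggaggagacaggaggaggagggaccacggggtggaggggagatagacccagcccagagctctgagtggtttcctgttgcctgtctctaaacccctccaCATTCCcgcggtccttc
TNC: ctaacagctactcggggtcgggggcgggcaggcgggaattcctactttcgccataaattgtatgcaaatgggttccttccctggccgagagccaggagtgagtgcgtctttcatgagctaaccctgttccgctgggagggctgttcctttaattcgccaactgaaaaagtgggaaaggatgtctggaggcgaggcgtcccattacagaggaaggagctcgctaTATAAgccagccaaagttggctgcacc
POSTN: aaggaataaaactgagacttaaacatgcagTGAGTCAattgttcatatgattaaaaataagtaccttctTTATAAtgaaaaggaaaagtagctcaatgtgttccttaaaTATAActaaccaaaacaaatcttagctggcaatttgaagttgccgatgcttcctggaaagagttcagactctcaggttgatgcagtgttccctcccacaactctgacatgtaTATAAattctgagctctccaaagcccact
THBS1: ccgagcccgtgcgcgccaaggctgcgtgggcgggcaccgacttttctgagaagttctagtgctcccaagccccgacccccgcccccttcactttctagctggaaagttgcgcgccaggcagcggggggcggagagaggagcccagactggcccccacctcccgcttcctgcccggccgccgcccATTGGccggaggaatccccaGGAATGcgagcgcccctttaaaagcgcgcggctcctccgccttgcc
THBS2: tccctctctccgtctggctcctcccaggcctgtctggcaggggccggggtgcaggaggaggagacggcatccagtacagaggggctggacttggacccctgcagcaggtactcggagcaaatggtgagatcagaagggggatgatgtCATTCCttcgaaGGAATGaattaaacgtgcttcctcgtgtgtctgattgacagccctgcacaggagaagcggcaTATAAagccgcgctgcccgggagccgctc
The FN1 window lies at chr2:215436069-215436318, that of SPARC at chr5:151686916-151687165, that of TNC at chr9:115118158-115118407, and those 3 genes are read from the minus strand. The windows of POSTN at chr13:37598769-37599018 and THBS2 at chr6:169253847-169254096 also lie on the minus strand, and THBS1 at chr15:39580829-39581078 is on the plus strand. The RefSeq starts differ from the ends of the Ensembl gene intervals given below. The windows of SPARC, FBN1, FBLN1 and VCAN lie inside those intervals, and those of FN1, TNC, POSTN and THBS2 overlap theirs in part. Only the THBS1 window lies wholly before its interval. A TATA element ended 22 to 25 bases before the start in FN1, TNC, THBS2, POSTN and VCAN, and TATAA was found anywhere in the window in 18.9% of 35116 promoters. POSTN held TATAA at 4 places, 2 of them overlapping on opposite strands, and its window had 36.4% G and C against a median of 58.0% over all promoters and 76.4% in FN1. FN1 was the member with a cyclic AMP response element, which 1.65% of all promoters held, and with a CCAAT box, shared with THBS1 and with 32.0% of promoters. TGANTCA occurred in POSTN and in 6.57% of promoters. GGAATG occurred in FBN1, SPARC, THBS1 and THBS2 and in 11.9% of promoters, and in THBS2 it stood once on each strand. These matches are letters in a window and not evidence of binding.

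Across lines, the 10 genes took 0.914% and 0.971% of the reads on genes in Huh-7 and 0.299% to 0.529% in SK-hep1 and Mahlavu. FN1 alone took 0.858% and 0.917% in Huh-7, where it ranked 27 among all genes by FPKM in both libraries. SPARC alone took 0.234% to 0.444% in SK-hep1 and Mahlavu, where it ranked 9 to 33, against 3855 and 3606 in Huh-7. The most abundant of the 10 was thus SPARC in SK-hep1 and Mahlavu, where SERPINA1 was the hepatocyte marker that reached 1 FPKM, and FN1 in Huh-7, where all 8 did. Order within a line was taken from the median FPKM, the measure that is per length. In SK-hep1, SPARC was above THBS1 in every library, THBS1 was above the other members, and FN1, FBLN1, EFEMP1 and TNC followed with ranges that overlapped. In Mahlavu, SPARC was followed by EFEMP1, FN1, THBS2, THBS1, TNC and FBLN1, where THBS1 overlapped FN1 and THBS2, TNC overlapped FBLN1, and the other neighbours stood apart. In Huh-7, FN1 and FBLN1 were followed by SPARC, and then by THBS1 and VCAN, whose ranges overlapped. The lengths behind the deposited FPKM are shorter than the lengths listed in the tables, for SPARC 1008 against 3701 bases. With the listed lengths THBS1 and VCAN changed places in Huh-7, and POSTN and THBS2 in SK-hep1.

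**Figure D1:**
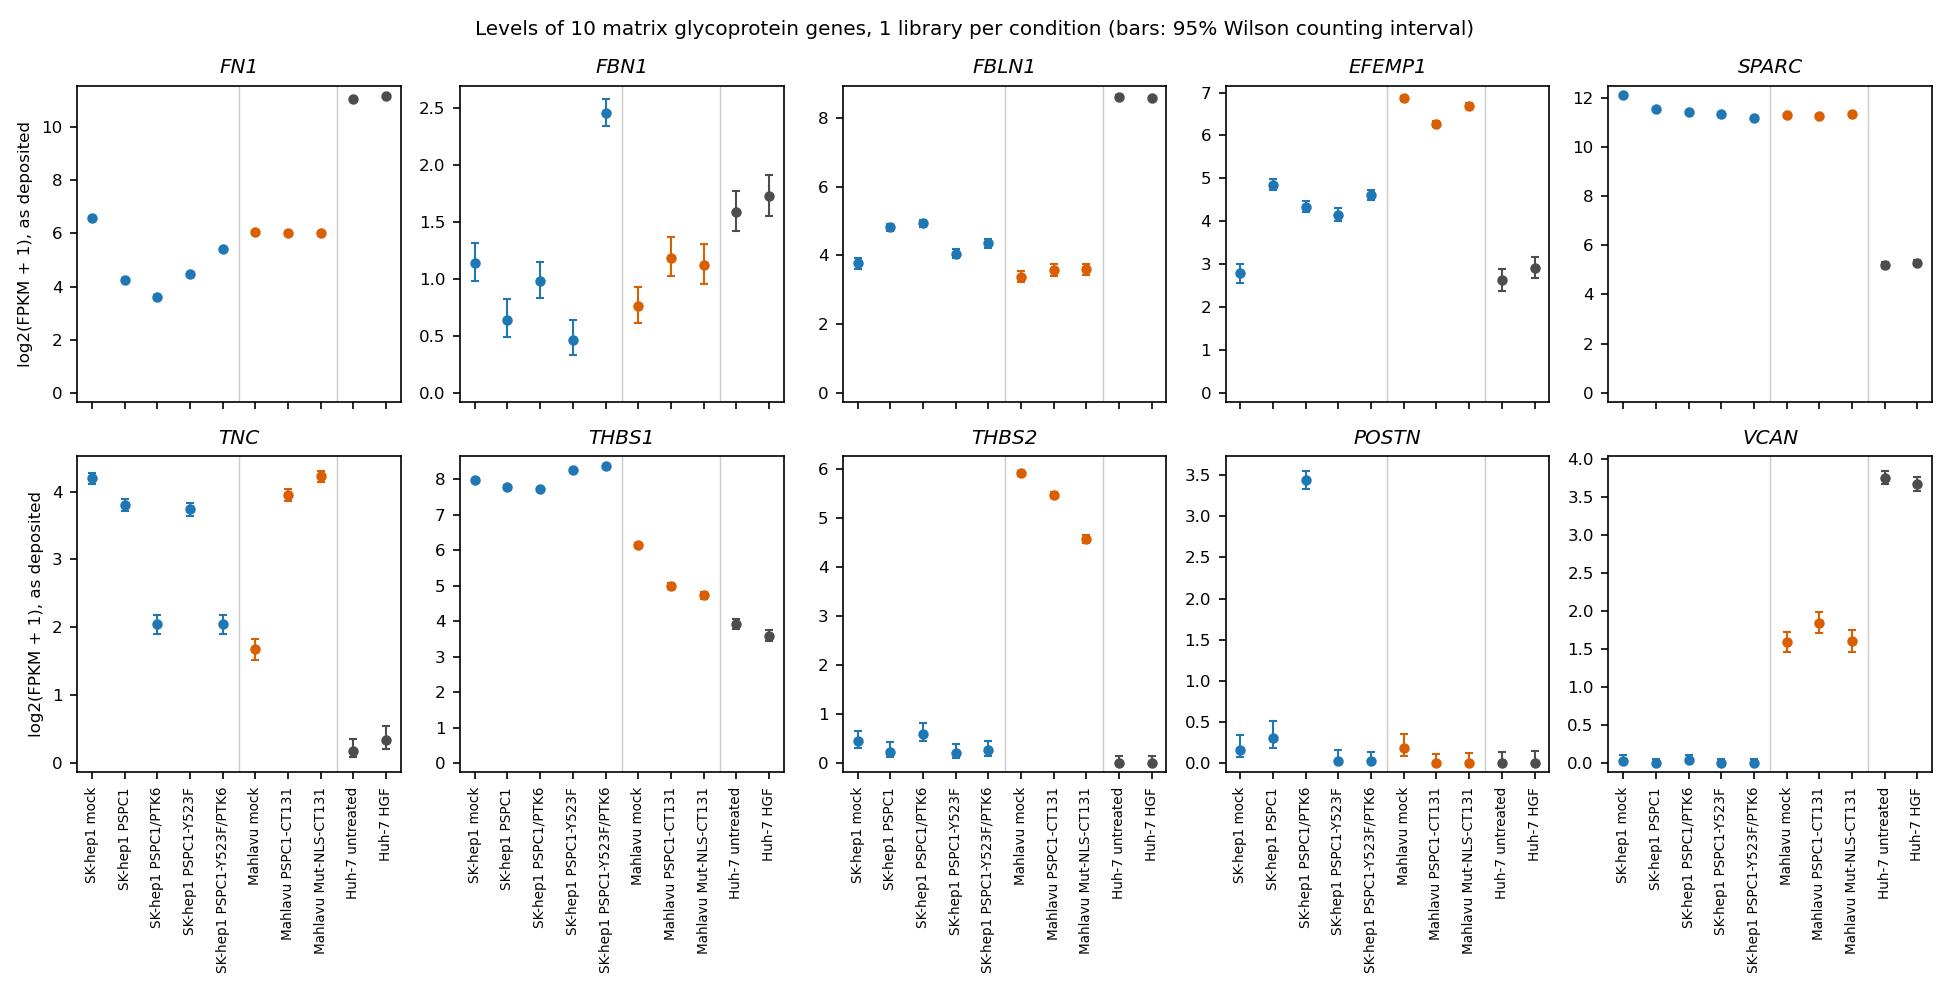
Level of each member in each of the 10 libraries, as log2(FPKM + 1) of the deposited values, with 95% Wilson intervals for counting error and 1 point per library. Points are blue for SK-hep1, orange for Mahlavu and grey for Huh-7. FN1 is at 95.7 FPKM in SK-hep1 mock and 11.2 with PSPC1/PTK6, and POSTN stands at 9.85 FPKM in that library and under 0.3 FPKM in the other 9.

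Counted by whether the libraries of 2 lines overlapped in FPKM, 4 of 9 members separated SK-hep1 from Mahlavu, where 47.4% of all genes did. FBLN1 and THBS1 were higher in every SK-hep1 library, and EFEMP1 and THBS2 in every Mahlavu library. Between Huh-7 and SK-hep1 7 of 9 members were separate, against 77.6% of all genes, and between Huh-7 and Mahlavu 9 of 9, against 76.9%. The shares were near the background in the first 2 pairs. In the third every member that passed was separate, a share above the background that was not tested. Huh-7 was above both other lines for FN1, FBLN1 and VCAN, and below both for SPARC, TNC and THBS1. The lines also differ in their hepatocyte markers and in the constructs they carry, and the part of each in these differences cannot be told apart.

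Counted over the members, 7 of 10 passed the filter with PSPC1 against mock, and FBLN1 and EFEMP1 were at least 2-fold higher and FN1 lower, where 5.58% of all 12411 genes changed. With PSPC1/PTK6, 4 of 8 changed against 8.41% of all genes, EFEMP1 and POSTN higher and FN1 and TNC lower. POSTN passed that filter only through the library in which it was high. With PSPC1-Y523F, 2 of 7 changed against 5.29%, EFEMP1 higher and FN1 lower. With PSPC1-Y523F/PTK6, 5 of 7 changed against 5.03%, FBN1 and EFEMP1 higher and FN1, SPARC and TNC lower. In Mahlavu 2 of 8 changed in the library labelled PSPC1-CT131 against 6.33% of all genes, TNC higher and THBS1 lower. In that labelled Mut-NLS-CT131, 3 of 8 changed against 6.42%, TNC higher and THBS1 and THBS2 lower. In Huh-7, HGF changed 0 of 7 members by 2-fold, against 0.820% of all genes. The median log2 fold change of the members passing the filter was -0.32, -0.35, -0.36 and 0.34 in the 4 SK-hep1 comparisons in that order, beside -0.03, -0.04, -0.01 and -0.04 over all genes. It was -0.13 and -0.02 in Mahlavu, beside 0.01 and 0.00, and 0.00 with HGF, as over all genes. Members went both ways in all 6 comparisons of transfectants with mock.

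**Figure D2:**
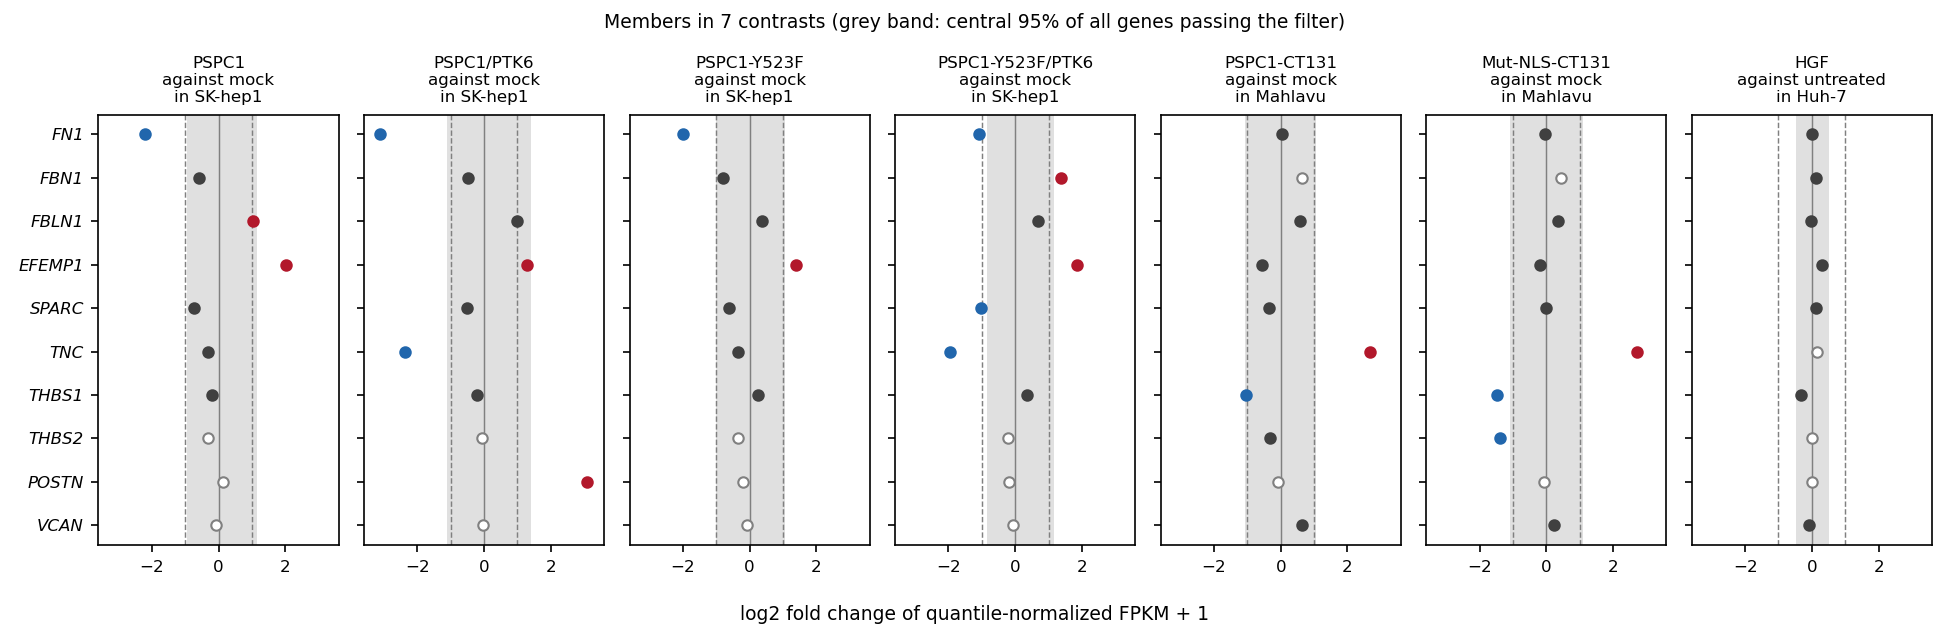
Log2 fold change of each member in the 7 comparisons with mock or untreated cells, from quantile-normalized FPKM + 1, with red for at least 2-fold higher, blue for at least 2-fold lower, black for less and open circles for genes under the filter. Dashed lines mark 2-fold, and the grey band holds the central 95% of all genes passing the filter. FN1 lies left of the band in all 4 SK-hep1 panels, and TNC lies left of it in both panels with PTK6 and right of it in both Mahlavu panels.

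Among the 2 genes that build fibrils, fibronectin was lower in all 4 SK-hep1 transfectants than in mock. Fibrillin-1 was counted as higher in 1 of them, and in shares of reads it was lower with PSPC1 and with PSPC1-Y523F. FN1 (ENSG00000115414, GRCh38 chr2:215360440-215436172, minus strand) encodes fibronectin, which binds integrins and collagens and is a common marker of EMT. Its level was 95.7 FPKM in SK-hep1 mock, 18.2 with PSPC1, 11.2 with PSPC1/PTK6, 21.1 with PSPC1-Y523F and 41.8 with PSPC1-Y523F/PTK6. Mock was the highest of the 5 libraries, and the intervals of no 2 of them overlapped. The log2 fold change against mock was -2.20 with PSPC1, -3.11 with PSPC1/PTK6, -2.00 with PSPC1-Y523F and -1.07 with PSPC1-Y523F/PTK6. In shares of reads, FN1 was 5.24-fold lower with PSPC1 (interval 4.96 to 5.55), 8.56-fold lower with PSPC1/PTK6 (8.03 to 9.13), 4.53-fold lower with PSPC1-Y523F (4.31 to 4.77) and 2.29-fold lower with PSPC1-Y523F/PTK6 (2.20 to 2.38). With PSPC1/PTK6 the fall was among the largest of the table, as 0.0241% of the genes tested lay below it. These 4 comparisons share the mock library, so a deviation of that library alone would enter all of them. After correction for GC content and gene length, the change with PSPC1-Y523F/PTK6 was -0.99, just under 2-fold.

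FN1 in Mahlavu was 66.0 FPKM in mock, 63.3 in the library labelled PSPC1-CT131 and 64.0 in that labelled Mut-NLS-CT131, a spread of 1.04-fold between the highest and the lowest. In Huh-7 it was 2144 FPKM untreated and 2291 with HGF, a share of reads 1.07-fold higher (1.06 to 1.08). Thus FN1 varied 8.56-fold among the SK-hep1 libraries and hardly within the other lines.

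FBN1 (ENSG00000166147, chr15:48408306-48645849, minus strand) encodes fibrillin-1, the backbone of microfibrils that store latent TGF-beta complexes. It was low throughout, at 1.21 FPKM in SK-hep1 mock, 0.558 with PSPC1, 0.970 with PSPC1/PTK6, 0.380 with PSPC1-Y523F and 4.50 with PSPC1-Y523F/PTK6, from 88, 38, 78, 27 and 368 reads. The PSPC1-Y523F/PTK6 library stood above the other 4 and above all Mahlavu and Huh-7 libraries. Its log2 fold change against mock was 1.38, in shares of reads 3.73-fold (2.95 to 4.77), and with a pseudocount of 5 FPKM it was 0.71, under 2-fold. With PSPC1 and PSPC1-Y523F the log2 fold changes were -0.60 and -0.78, not counted as changed. In shares of reads these were 2.16-fold (1.46 to 3.25) and 3.17-fold (2.04 to 5.08) lower than mock. Mahlavu had 0.694, 1.27 and 1.18 FPKM in mock, PSPC1-CT131 and Mut-NLS-CT131, and Huh-7 had 2.01 and 2.32 FPKM without and with HGF.

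Both fibulins were higher in the SK-hep1 transfectants than in mock, EFEMP1 by at least 2-fold in all 4. EFEMP1 (ENSG00000115380, chr2:55865967-55924139, minus strand) encodes fibulin-3, a secreted glycoprotein of basement membranes and connective tissue. It had 5.89 FPKM in SK-hep1 mock, 28.0 with PSPC1, 19.2 with PSPC1/PTK6, 16.8 with PSPC1-Y523F and 23.5 with PSPC1-Y523F/PTK6. Mock was the lowest library, and the lowest transfectant was 2.85-fold above it in shares of reads (2.31 to 3.54). Log2 fold changes against mock were 2.01 with PSPC1, 1.28 with PSPC1/PTK6, 1.38 with PSPC1-Y523F and 1.85 with PSPC1-Y523F/PTK6, again from 1 shared mock library. The change with PSPC1/PTK6 was 0.96 with a pseudocount of 5 FPKM. EFEMP1 and FN1 therefore moved in opposite directions in each of the 4 comparisons. In Mahlavu EFEMP1 was high, at 116 FPKM in mock, 75.6 in PSPC1-CT131 and 102 in Mut-NLS-CT131, and in Huh-7 it was 5.15 and 6.57 FPKM.

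FBLN1 (ENSG00000077942, chr22:45502238-45601135, plus strand) encodes fibulin-1, which binds fibronectin and elastic fibers and also circulates in plasma. Its level in SK-hep1 was 12.6 FPKM in mock, 27.1 with PSPC1, 29.6 with PSPC1/PTK6, 15.5 with PSPC1-Y523F and 19.3 with PSPC1-Y523F/PTK6. Both libraries with unmutated PSPC1 were above both with PSPC1-Y523F, and mock was the lowest. The log2 fold change was 1.04 with PSPC1 and 0.99 with PSPC1/PTK6, on either side of the 2-fold line, and 0.36 and 0.67 with PSPC1-Y523F and PSPC1-Y523F/PTK6. In shares of reads the first pair was 2.15-fold (1.87 to 2.48) and 2.35-fold (2.06 to 2.70) above mock. The change with PSPC1 was under 2-fold with a pseudocount of 5 FPKM and after correction for GC content and gene length. FBLN1 was 9.38, 10.9 and 11.1 FPKM in Mahlavu mock, PSPC1-CT131 and Mut-NLS-CT131. In Huh-7 it was 393 FPKM untreated and 379 with HGF.

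Of the 5 matricellular genes, TNC changed most often, lower in both SK-hep1 libraries given PTK6 and higher in both Mahlavu transfectants, and POSTN had nearly all of its reads in a single library. TNC (ENSG00000041982, chr9:115019578-115118257, minus strand) encodes tenascin-C, a hexameric protein that opposes adhesion to fibronectin and is found in wounds, tumor stroma and invasive fronts. SK-hep1 mock had 17.3 FPKM, PSPC1 had 12.9, PSPC1-Y523F had 12.3, and PSPC1/PTK6 and PSPC1-Y523F/PTK6 each had 3.13, from 237 and 241 reads. The libraries with PTK6 lay below the 3 libraries without it. Against mock the log2 fold change was -2.38 with PSPC1/PTK6 and -1.96 with PSPC1-Y523F/PTK6, in shares of reads 5.53-fold lower in each (4.81 to 6.39 and 4.81 to 6.38). With PSPC1 and PSPC1-Y523F alone it was -0.32 and -0.36.

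In Mahlavu TNC was 2.19 FPKM in mock, 14.4 in the library labelled PSPC1-CT131 and 17.7 in that labelled Mut-NLS-CT131, from 158, 904 and 1074 reads. Both transfectants were above mock, with log2 fold changes of 2.67 and 2.73 and shares of reads 6.55-fold (5.53 to 7.81) and 8.08-fold (6.83 to 9.61) higher. These comparisons share the mock library, so a deviation of mock alone would enter both. Mock had 24052 genes with a value above 0, against 20999 and 21628 in the libraries labelled PSPC1-CT131 and Mut-NLS-CT131. PTK6 itself was 8.95 FPKM in Mahlavu mock and 17.2 and 17.3 FPKM in those libraries, and its part in the difference was not tested. Of the genes tested, 99.9% lay below TNC in each of these comparisons. Across genes the fold changes of the PSPC1-CT131 comparison followed GC content (Spearman 0.57), and with that relation removed the change of TNC was 2.43. Huh-7 held 7 and 13 reads of TNC, 0.135 and 0.269 FPKM, and a difference was not detectable at this depth (ratio interval 0.740 to 5.90).

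POSTN (ENSG00000133110, chr13:37562583-37598844, minus strand) encodes periostin, a fasciclin-domain protein that binds integrins and tenascin-C and is made by fibroblasts. Its reads in SK-hep1 were 6 in mock, 11 with PSPC1, 540 with PSPC1/PTK6, 1 with PSPC1-Y523F and 1 with PSPC1-Y523F/PTK6. In FPKM these were 0.121, 0.237, 9.85, 0.0207 and 0.0179, so that 1 library held nearly all the signal. The PSPC1/PTK6 library also had 21544 genes with a value above 0, against 19497 to 19862 in the other SK-hep1 libraries. Whether what set this library apart had a part in the POSTN difference was not tested. Against mock the PSPC1/PTK6 library had a log2 fold change of 3.09 and a share of reads 81.7-fold higher (37.3 to 224), and against PSPC1 alone 2.95 and 41.6-fold (23.1 to 83.8). Mahlavu mock had 7 reads. The libraries labelled PSPC1-CT131 and Mut-NLS-CT131 and both Huh-7 libraries had 0 reads, where 3 reads would be 0.0660 to 0.0857 FPKM. Of 7 fibroblast and stellate markers, 3 reached 1 FPKM in the PSPC1/PTK6 library and 3 or 4 in the other SK-hep1 libraries, with a summed level of 58.2 FPKM against 24.7 to 53.7. DCN had 0 reads in the PSPC1/PTK6 library.

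SPARC (ENSG00000113140, chr5:151661096-151687165, minus strand) encodes osteonectin, a collagen-binding protein that loosens focal adhesions. It had 4408 FPKM in SK-hep1 mock, 2934 with PSPC1, 2760.0 with PSPC1/PTK6, 2553 with PSPC1-Y523F and 2317 with PSPC1-Y523F/PTK6. Mock was the highest, and the 4 transfectants lay between 2317 and 2934 FPKM. The log2 fold changes were -0.73, -0.50, -0.61 and -1.04 in that order. The last was counted as lower, yet in shares of reads it was 1.90-fold (1.88 to 1.92) and it was under 2-fold with FPKM as deposited, with library sums, with TMM factors and after correction for GC content and gene length. Mahlavu had 2528 FPKM in mock, 2423 in PSPC1-CT131 and 2558 in Mut-NLS-CT131, a spread of 1.06-fold. Huh-7 had 35.4 and 38.1 FPKM, far below every library of the other lines.

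THBS1 and THBS2 encode thrombospondin-1 and thrombospondin-2, trimeric proteins that inhibit angiogenesis, of which the first also activates latent TGF-beta. THBS1 (ENSG00000137801, chr15:39581079-39599466, plus strand) had 251 FPKM in SK-hep1 mock, 220.2 with PSPC1, 209 with PSPC1/PTK6, 303 with PSPC1-Y523F and 330.0 with PSPC1-Y523F/PTK6. Both Y523F libraries were above mock and both libraries of unmutated PSPC1 below it, and none of the 4 differed from mock by 2-fold. Mahlavu had 69.9 FPKM in mock, 30.6 in the library labelled PSPC1-CT131 and 25.6 in that labelled Mut-NLS-CT131, with the mock library, shared by both comparisons, above both. The log2 fold changes were -1.05 and -1.48, and the shares of reads were 2.28-fold (2.11 to 2.46) and 2.73-fold (2.52 to 2.97) lower. The first was -0.96 with a pseudocount of 5 FPKM, -0.99 with normalization within the line and -0.91 with TMM factors, each under 2-fold. Huh-7 had 14.2 FPKM untreated and 11.1 with HGF, from 355 and 258 reads, 1.28-fold lower in shares of reads (1.09 to 1.51).

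THBS2 (ENSG00000186340, chr6:169215780-169254044, minus strand) had nearly all of its reads in Mahlavu. It had 58.9 FPKM in Mahlavu mock, 43.2 in the library labelled PSPC1-CT131 and 22.7 in that labelled Mut-NLS-CT131. The 3 libraries stood apart, with log2 fold changes against mock of -0.31 and -1.38, the latter 2.60-fold lower in shares of reads (2.41 to 2.79). SK-hep1 held 7 to 28 reads of THBS2, at most 0.520 FPKM, and Huh-7 held 0 reads, where 3 reads would be 0.0813 and 0.0873 FPKM. The antisense gene THBS2-AS1 overlaps it with at most 65 reads in a library, and strand was not used as far as the sources state, so those reads cannot be told apart. CLMAT3 overlaps SPARC with at most 15 reads and 3 genes overlap THBS1 with at most 7.

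VCAN (ENSG00000038427, chr5:83471465-83582303, plus strand), the gene of versican, had 0 to 3 reads in each SK-hep1 library, at most 0.0279 FPKM. Mahlavu had 2.0 FPKM in mock, 2.6 in PSPC1-CT131 and 2.0 in Mut-NLS-CT131, and Huh-7 had 12.5 untreated and 11.7 with HGF. The lines did not overlap, and no difference within a line reached 2-fold.

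Direct comparisons set transfectants side by side that differ in PTK6 or in the mutation. In SK-hep1 they differ in PSPC1 as well. It had 209 reads with PSPC1, 930 with PSPC1/PTK6, 71 with PSPC1-Y523F and 2539 with PSPC1-Y523F/PTK6. The part of the PSPC1 level in the differences below was not tested. Adding PTK6 to PSPC1 left POSTN higher and TNC lower (2 of 7 members, 4.96% of all genes), with a log2 fold change of -2.06 for TNC. POSTN again passed the filter only through the library in which it was high. Adding PTK6 to PSPC1-Y523F left FBN1 higher, by 2.17, and TNC lower, by -1.60 (2 of 7 members, 5.98% of all genes), and FBN1 passed the filter only through the library with PTK6. TNC was the member that changed by 2-fold with PTK6 on both forms of PSPC1. FN1 went from 18.2 to 11.2 FPKM when PTK6 joined PSPC1 and from 21.1 to 41.8 FPKM when it joined PSPC1-Y523F, log2 fold changes of -0.91 and 0.93. Over all 11931 genes above the filter in both comparisons, 1.16% went opposite ways by at least 1.5-fold, as FN1 did. EFEMP1 also went down in the first, by -0.74, and up in the second, by 0.47. Without PTK6, the mutant and the unmutated form differed by 2-fold in 0 of 6 members, against 4.25% of all genes. With PTK6, FN1 and FBN1 were higher and POSTN lower in PSPC1-Y523F than in PSPC1 (3 of 8 members, 6.96% of all genes), FN1 by 2.04 and FBN1 by 1.87. Of these, FBN1 and POSTN passed the filter only through the library in which each was high, so nothing is read from that count. In Mahlavu, THBS2 was higher with PSPC1-CT131 than with Mut-NLS-CT131 (1 of 9 members, 8.82% of all genes), by 1.07, though by 1.90-fold in shares of reads (1.76 to 2.06).

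**Figure D3:**
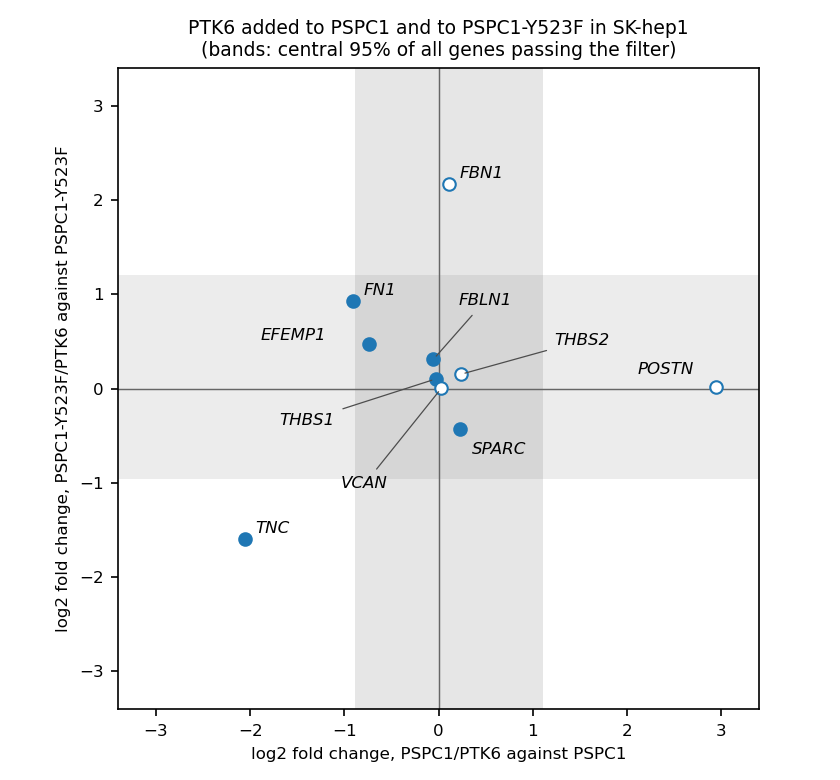
Log2 fold change of each member when PTK6 was added to PSPC1 (horizontal) and to PSPC1-Y523F (vertical) in SK-hep1, from quantile-normalized FPKM + 1, with 1 point per gene and open circles for genes under the filter in either comparison. Bands hold the central 95% of all genes passing the filter. TNC lies below both bands at -2.06 and -1.60, FN1 lies at -0.91 and 0.93, FBN1 is high on the vertical axis and POSTN on the horizontal axis.

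Other genes of the matrix give the setting of these values, and a gene named with under 1 FPKM in 1 library may have passed the filter through the other alone. Of 47 other matrix glycoproteins, 27 passed the filter with PSPC1 and 4 were at least 2-fold higher and 4 lower, where 5.58% of all genes changed. LTBP3, which holds latent TGF-beta in the matrix, went from 12.1 to 41.0 FPKM, and LAMA1, a laminin chain of basement membranes, from 8.82 to 2.65. With PSPC1/PTK6, 5 were higher and 3 lower of 27 against 8.41% of all genes, with SPOCK1, a proteoglycan of the SPARC family, at 126 FPKM against 23.7 in mock, and SPP1, osteopontin, at 0.537 against 3.32. With PSPC1-Y523F, 0 were higher and 1 lower of 28 against 5.29%, VTN (vitronectin), from 19.4 to 6.72 FPKM. With PSPC1-Y523F/PTK6, 2 were higher and 1 lower of 27 against 5.03%, with LTBP3 at 64.4 FPKM and LAMA1 at 2.45. In Mahlavu, 8 were higher and 3 lower of 28 under the PSPC1-CT131 label against 6.33%, with SPOCK1 from 8.55 to 29.5 FPKM and VTN from 14.3 to 1.21. Under the Mut-NLS-CT131 label, 5 were higher and 2 lower of 27 against 6.42%, with SPP1 from 91.8 to 441 FPKM and MATN2 (matrilin-2) from 32.6 to 3.30. HGF changed 0 of 29 against 0.820%. The median log2 fold change of the list lay between -0.03 and 0.42 in the 7 comparisons, beside -0.04 to 0.01 over all genes.

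Among 17 receptors that bind these proteins, 10 passed the filter in each SK-hep1 comparison, of which 0 were higher and 1 lower with PSPC1 against 5.58% of all genes, and 2 were higher and 1 lower with PSPC1/PTK6 against 8.41%. With PSPC1-Y523F 0 changed against 5.29%, and with PSPC1-Y523F/PTK6 1 was higher against 5.03%. SDC1 (syndecan-1) was 179 FPKM in mock, 74.4 with PSPC1 and 70.4 with PSPC1/PTK6. ITGB3, the beta chain of the vitronectin receptor, was 3.49 FPKM in mock, 12.7 with PSPC1/PTK6 and 9.52 with PSPC1-Y523F/PTK6. In Mahlavu, 2 of 11 were higher and 1 lower under the PSPC1-CT131 label against 6.33% of all genes, and 1 was higher and 1 lower under the Mut-NLS-CT131 label against 6.42%. ITGA5, the alpha chain of the fibronectin receptor, went from 87.2 FPKM to 336 and 260.1, and ITGA4, which pairs with beta-1 to bind fibronectin, from 12.3 to 2.13 and 3.42. FN1 itself stayed within 1.04-fold across those 3 libraries. HGF changed 0 of 10 receptors against 0.820% of all genes. The median log2 fold change of the receptors was -0.48 with PSPC1 and 0.39 with PSPC1/PTK6, and between -0.15 and 0.32 in the other 5.

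Of 11 partners of versican and hyaluronan, 4 passed the filter in SK-hep1, where 0 changed with PSPC1 or PSPC1-Y523F, 2 were lower with PSPC1/PTK6 against 8.41% of all genes and 1 was higher with PSPC1-Y523F/PTK6 against 5.03%. ADAMTS1, a protease that cuts versican, went from 17.1 FPKM in mock to 8.23 with PSPC1/PTK6, and ADAMTS15 from 0.821 to 2.56 with PSPC1-Y523F/PTK6. In Mahlavu 1 passed and 0 changed, and in Huh-7 4 passed and 0 changed. The median of the list ran from -0.47 to 0.31.

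TGF-beta is a known inducer of many matrix genes, and 17 genes of its response, of which some are matrix genes themselves, were counted in the same way. All 17 passed the filter in SK-hep1 and Mahlavu. With PSPC1, 1 was higher and 1 lower against 5.58% of all genes, TGFB2 from 7.62 to 22.1 FPKM and TGFBI from 1.93 to 0.406. With PSPC1/PTK6, 3 were higher and 1 lower against 8.41%, with TGFB2 at 27.1 FPKM and CCN2 from 38.1 to 15.2. With PSPC1-Y523F, TAGLN was higher (1.10 to 3.96 FPKM) and COL1A1 lower (15.4 to 3.67), 2 genes of 17 against 5.29%. With PSPC1-Y523F/PTK6, 1 was higher against 5.03%, TGFB1I1, from 27.2 to 71.6 FPKM. Under the PSPC1-CT131 label, 4 were higher and 1 lower against 6.33%, with TGFB1 from 418 to 1069 FPKM and TAGLN from 9.88 to 0.696. Under the Mut-NLS-CT131 label, 1 was higher, BHLHE40 from 96.0 to 273 FPKM, and 3 were lower, with ID1 from 91.5 to 16.0, against 6.42% of all genes. HGF changed 0 of 14 against 0.820%. The median ran from -0.28 to 0.69, the latter under the PSPC1-CT131 label.

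For each member that changed, the 2 nearest genes across the 6 comparisons of SK-hep1 and Mahlavu with mock were taken, by the mean absolute difference in log2 fold change among 12902 genes. Every member has such nearest genes, and no background distance was computed, so being listed does not show that a gene followed a member closely. The 2 nearest to FN1 were PITX1 (0.40) and FAM83A (0.40), both down most with PSPC1/PTK6, at -3.08 and -3.31. FBLN1 was nearest to TEAD3 (0.06) and KAZALD1 (0.08), and SPARC to NAA25 (0.08) and MRPS31 (0.10). THBS2 was nearest to HEXIM1 (0.11) and ZNF425 (0.13), and THBS1 to CEMIP (0.14) and H3C6 (0.17, with 4 to 67 reads). THBS2 had 7 to 28 reads in the SK-hep1 libraries and was under the filter in all their comparisons. Its nearness to those genes therefore rests mainly on Mahlavu. POSTN was nearest to HLA-B (0.25) and BIRC3 (0.26), which were higher with PSPC1/PTK6 by 2.98 and 2.23. In the other SK-hep1 and Mahlavu libraries POSTN had 0 to 11 reads, so its nearness rests mainly on the PSPC1/PTK6 library. EFEMP1 was nearest to RPS2P32 (0.25), a pseudogene with 0 to 53 reads, and VGLL3 (0.26), and FBN1 to MOXD1 (0.28) and MOB3B (0.28, with 8 to 206 reads). The distances were largest for TNC, for which the smallest differences were 0.87, for MIR589 with 2 to 12 reads, and 0.91, for SFN. Nearness here describes the values of these libraries, 4 of which share one mock and 2 another.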

How the data were processed

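Members, gene lists and the 2-fold rule were chosen with earlier results of these data known. Tables of SK-hep1 and Mahlavu hold the authors' raw gene-level read counts beside FPKM, and the Huh-7 tables used here hold FPKM as deposited by the authors. Submitters' processing notes name TopHat2 2.0, HTSeq 0.6.1, edgeR and GRCh38.p12, whereas the paper's methods name hg18. The tables' positions are those of GRCh38. Labels describe poly-T selection of RNA and the methods rRNA depletion, and which of them was used could change the level of transcripts without poly-A tails. Symbols were joined by Ensembl identifier, 57532 of 58302 genes having one, after 8 lines without a gene were left out of each table. Huh-7 reads were recovered from FPKM steps for genes with a known length, 22724 values in the untreated and 22456 in the HGF library. Of these values 100% were whole numbers within 0.05 of a read. Another 3114 and 2890 values above 0 had no length and were not checked.

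The paper's methods describe quantile normalization over all samples and list those of SK-hep1 and Mahlavu. Here FPKM were quantile normalized over these 8 libraries and, apart from them, over both Huh-7 libraries, and log2(FPKM + 1) was compared between 2 libraries. The filter was an average of 1 quantile-normalized FPKM over both libraries, and changes of 2-fold were counted. Comparisons of lines used an average of 1 FPKM as deposited over all libraries of both lines. No p-value is possible with 1 library per condition. Levels have 95% Wilson intervals and ratios of read shares exact (Clopper-Pearson) intervals from depths of 15245935 to 24278662 reads, and 3 reads set the limit for a count of 0. Reads carry no molecular identifiers, so the intervals cover counting error only.

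Named genes are the 10 members, in each of 4 lists the largest rise and fall of at least 2-fold in a comparison with mock or untreated, the 2 genes nearest to each member that changed, and PSPC1 and PTK6. Promoters are those of RefSeq on GRCh38.p14. On simulated data for PSPC1 against mock, the count found 200 of 200 genes altered 4-fold and 19 of 11659 genes left unaltered. Both libraries were drawn by read sampling from their pooled profile, and only genes at 5 FPKM or more were altered. Variation between libraries beyond that sampling was left out, so the simulation does not check the 2-fold counts of these libraries. Alternatives were a pseudocount of 0.1 or 5, no filter or a mean of 5 FPKM, FPKM as deposited or scaled to a sum of 1000000, quantile normalization within each line or over all 10 libraries, counts scaled by TMM and, chosen after seeing the data, gene length and GC content taken out. Python 3.11.15, numpy 2.4.6, pandas 2.3.3, scipy 1.17.1, matplotlib 3.10.9, R 4.3.3 and edgeR 4.0.16 were used.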

Additional observations from a re-analysis of the deposited data

Results flagged for a closer look

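FN1 is singled out because its 2 changes with PTK6 in SK-hep1 went opposite ways, each by at least 1.5-fold. EFEMP1, FBLN1, SPARC and THBS1 also had log2 fold changes of opposite sign after quantile normalization, under 1.5-fold in at least 1 of the comparisons, and TNC fell in both. For FBLN1 and SPARC the opposite signs did not hold in shares of reads. There FBLN1 was 1.09-fold and 1.24-fold higher with PTK6, and SPARC 1.06-fold and 1.10-fold lower. When PTK6 was added to PSPC1, the log2 fold change of FN1 was -0.9108, from 1476 to 1068 reads, and when it was added to PSPC1-Y523F it was 0.9265, from 1781 to 4062 reads. In shares of reads FN1 was 1.63-fold lower in the first case (exact 95% interval 1.51 to 1.77) and 1.98-fold higher in the second (1.87 to 2.10). The difference between the 2 changes of FN1 was not tested, since each rests on 1 library per condition. Of 11931 genes, 138 (1.16%) went opposite ways by at least 1.5-fold in these comparisons. PSPC1 itself had 209 and 930 reads in the first pair of libraries and 71 and 2539 in the second, and its part in the difference was not tested.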

How the results depend on the processing

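No paired analysis was possible because each condition had 1 library, and for the same reason no library could be left out. Of the 7 counts of changed members, the count for the library labelled PSPC1-CT131 was 2 and became 1, with TNC the member counted, under a pseudocount of 5 FPKM, under quantile normalization within each line and under TMM scaling. The count for PSPC1-Y523F/PTK6 was 5 and became 3 after correction for GC content and gene length, which was added once the data had been seen, when FN1 and SPARC came just under 2-fold. The other alternatives of these counts, and all alternatives of the other 5, stayed within 1.5 times. Of 499 alternative values of single members above the filter, 399 stayed within the counting interval of the value, 100 moved beyond it, and 0 of the changes of at least 2-fold reversed. That interval was the one of the read shares, centred on the value. Alternatives of the filter leave a value as it was, as does normalization within the line for Huh-7, so part of the 399 was fixed in advance. The changes of at least 2-fold that came under it with at least 1 alternative were those of FBLN1 with PSPC1, EFEMP1 with PSPC1/PTK6, FN1, FBN1 and SPARC with PSPC1-Y523F/PTK6, and THBS1 with PSPC1-CT131. In the other direction, FBN1 with PSPC1 and with PSPC1-Y523F reached 2-fold with a pseudocount of 0.1, at -1.05 and -1.46, and FBLN1 with PSPC1/PTK6 did under 5 alternatives, with a highest value of 1.18. TNC stayed at 2-fold or more under each alternative, and POSTN under the 9 that gave it a value, since it did not pass a mean of 5 FPKM. TNC lay between -2.70 and -1.61 with PSPC1/PTK6. Fold changes followed GC content most in the library labelled PSPC1-CT131 (Spearman 0.57 across genes, -0.10 to 0.25 in the other 6), and genes are not independent replicates. TMM was not run for Huh-7, whose reads were recovered from FPKM. Depth limits POSTN, THBS2 and VCAN in SK-hep1, TNC in Huh-7 and FBN1 in every line.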
